A study of Oryza sativa with 6 samples.

Results

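The bright end of the wild-type seed transcriptome was taken as the probe sets with a deposited intensity of at least 2048 (log2 of 11) on all 3 wild-type arrays, and 1 probe set was kept for each annotated gene, the brightest in WT. Of the 57194 probe sets tested, 216 (0.378%) reached this limit. Of these 216 probe sets, 170 were paired with 1 gene, and they stood for 140 genes. A further 11 were paired with several genes and 35 with no gene in the annotation used. Genes for starch synthesis (3), storage proteins (8), ribosomal proteins (9) and translation factors (3) were set aside, which left 117 genes, called members here, of the 17905 genes with a probe set of their own. A gene name was given for 34 of them, and the other 83 carried a locus number alone, so it could not be checked whether some of these belong to the classes that were set aside. The WT values chose the members, so WT levels are descriptions. MADS29_KD arrays were not used by the choice, but each difference between the groups shares the WT arrays with it.

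The study profiled whole S3-stage seeds, 5 to 10 days after pollination, of the *Oryza sativa* subsp. *indica* variety PB1 on Affymetrix rice genome arrays. There were 3 samples from MADS29_KD plants, which carry an RNA interference construct against *OsMADS29*, and 3 from wild-type (WT) plants of the same variety, and the series describes both sets as biological replicates. The sources used here name neither the promoter that drove the construct nor the plants or transformed lines behind each MADS29_KD sample, and the p-values cover no more than the spread among these arrays. *OsMADS29*, which encodes a B-sister MADS-box protein, read 35.9, 34.4 and 29.9 in MADS29_KD, against 142.6, 96.8 and 158.0 in WT. Its log2 difference (MADS29_KD minus WT) was −1.96 ± 0.21 (SE of the limma fit, adjusted p = 0.00725), and all 3 MADS29_KD arrays lay below all WT arrays.

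A rice seed at this age is a growing triploid endosperm with a young embryo inside a green pericarp and the remains of the nucellus. The endosperm imports sucrose, cleaves it with sucrose synthase and runs glycolysis on the products while starch and storage proteins begin to accumulate, and storage proteins fold in the endoplasmic reticulum with the help of chaperones and disulfide isomerases. Aquaporins of the vacuolar membrane, metallothioneins, germin-like proteins and lipid transfer proteins are other abundant products of cereal seeds. A whole-seed array averages over these tissues, so fewer cells of a type and less RNA per cell cannot be told apart. An intensity depends on each probe set's own sequences, so the levels of different members were not ranked against each other.

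On the deposited scale most members stayed at the limit in MADS29_KD seeds, and most of their intervals lay within 2-fold. Far fewer intervals did on a scale set by the hybridization controls, which is given below. On their own probe set, 78 of the 117 members remained at 2048 or higher on all 3 MADS29_KD arrays, 8 on some and 31 on none. The 95% interval of the difference lay within 2-fold for 97 members (82.9%, against 88.9% of all probe sets tested) and within 1.5-fold for 52 (44.4%, against 78% of all probe sets). The share over all probe sets is set largely by dim ones, since 39424 of the 57194 had a mean log2 intensity under 3. Among the 148 probe sets with a mean log2 intensity of 11 to 12 over all 6 arrays, a choice that used both groups alike, 75.7% had an interval within 2-fold, and among the 77 at 12 or more, 77.9% did. Within 1.5-fold the shares were 39.2% and 48.1%. The members' shares were near those of these bins, so no stability particular to the members is read from them.

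More members were called lower than higher. At an adjusted p under 0.05 (limma, Benjamini-Hochberg over the 57194 probe sets), 55 members (47.0%) were lower in MADS29_KD, against 6.28% of all probe sets tested, and 16 (13.7%) were higher, against 5.07%, while 46 were not called. With a change of at least 2-fold required as well, 6 members (5.13%) were lower, against 2.49% of all probe sets, and 1 (0.855%) was higher, against 2.05%. The MADS29_KD arrays lay wholly below the WT arrays for 73 of the 117 members, against 12.1% of all probe sets. They lay wholly above for 25 members, against 46.5% of all probe sets, and overlapped for 19. Of the 26606 probe sets wholly above, 22134 had a mean log2 intensity under 3. Among the 148 probe sets with a mean log2 intensity of 11 to 12, 64 lay wholly below and 44 wholly above. The median log2 difference was −0.33 over the members (quartiles −0.67 and 0.10), against 0.01 over all probe sets tested. The direction of this count followed the choice of arrays. When 118 genes were chosen on the mean of all 6 arrays, 41 were lower and 24 higher with a median of −0.17, and when 118 were chosen on the MADS29_KD arrays, 26 were lower and 48 higher with a median of 0.22. No lean of the members as a group is therefore read from these counts.

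**Figure D1:**
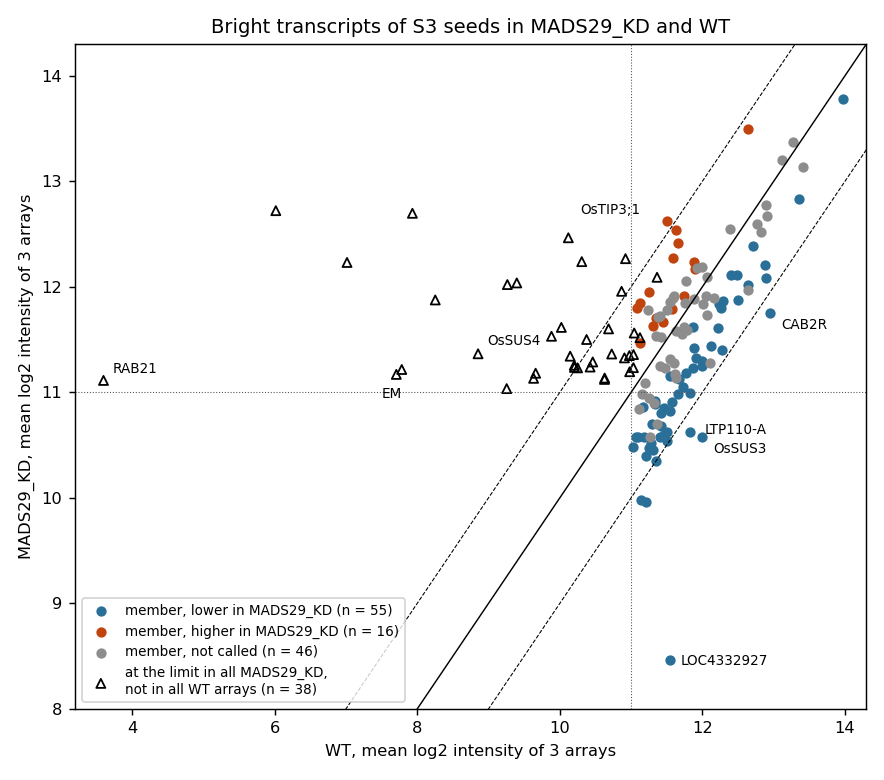
Mean log2 intensity of 3 MADS29_KD arrays (vertical axis) against that of 3 WT arrays (horizontal axis) for the 117 members (filled points, coloured by call) and for the 38 genes that reached the limit on all MADS29_KD arrays but not on all WT arrays (open triangles). The solid line marks equal levels, the dashed lines 2-fold, and the dotted lines the limit (log2 of 11). All but a few members lie between the dashed lines, and LOC4332927 lies farthest below them.

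Brightness itself went with the share of calls. Over all probe sets, 0.45% of those with a mean log2 intensity under 3 were called lower and 1.18% higher, whereas between 9 and 10 the shares were 30.2% and 20.4%. Between 11 and 12 they were 34.5% lower and 18.9% higher, and at 12 or more the order turned, with 19.5% lower and 29.9% higher. The median SD between replicates of the members was 0.08 in MADS29_KD and 0.09 in WT on the log2 scale, and the median SE of a difference was 0.07. The median SE was smaller over all probe sets (0.02) and for those under log2 of 3 (0.01), where calls were rare. The median absolute difference of the members was 0.45. By mean log2 intensity it was 0.02 under 3, 0.51 at 10 to 11, 0.43 at 11 to 12 and 0.37 at 12 or more. These bins used both groups alike, whereas the WT arrays chose the members.

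**Figure D2:**
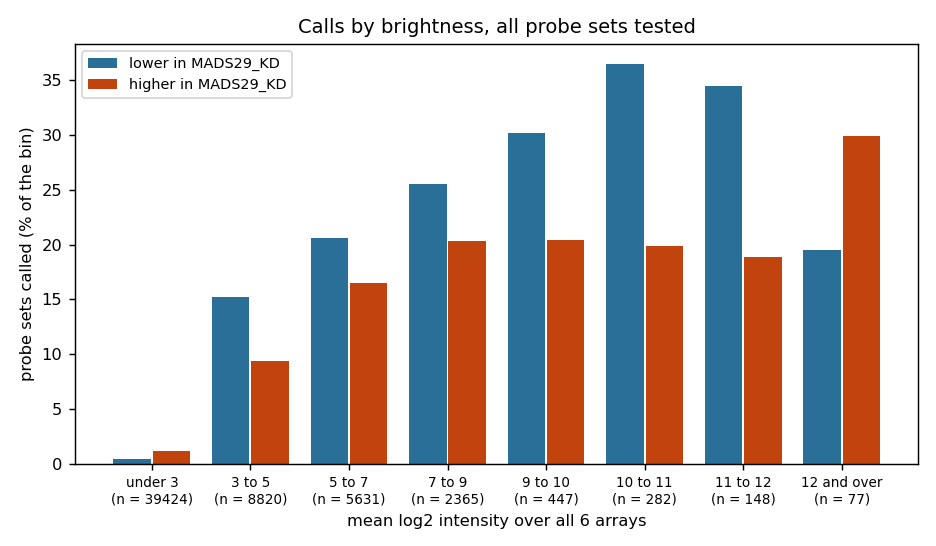
Share of all tested probe sets called lower (blue) or higher (orange) in MADS29_KD at an adjusted p under 0.05, by mean log2 intensity over the 6 arrays, with the number of probe sets under each bin. Calls were rare under log2 of 3 and common in each brighter bin, and only the bin at 12 and over, with 77 probe sets, held more calls higher than lower among the bins from 3 upwards.

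Both sucrose synthases among the members fell. *OsSUS3*, one of them, which splits sucrose into fructose and UDP-glucose, read 1658, 1575 and 1359 in MADS29_KD seeds, against 4008, 4223 and 4040 in WT seeds. It was the deepest fall among the named members, 2.68-fold (log2 −1.42 ± 0.08, adjusted p = 0.00129), and no MADS29_KD array came near a WT array. Its relative *OsSUS2* read 2287, 2389 and 2056 in MADS29_KD, against 3370, 3081 and 3376 in WT, and fell 1.46-fold (log2 −0.55 ± 0.07, adjusted p = 0.0127). *OsSUS2* stayed above the limit on all 3 MADS29_KD arrays, which *OsSUS3* did not. The log2 ratio of *OsSUS3* to *OsSUS2* within an array was −0.55 ± 0.08 in MADS29_KD and 0.32 ± 0.12 in WT (SD, n = 3 each), with no overlap of arrays. This and the other ratios between members are descriptions, since the pairs were chosen after their values were seen. *OsSWEET11*, a sucrose exporter of the SWEET family, was measured at 5157, 4469 and 4412 in MADS29_KD, against 3991, 4386 and 3837 in WT. Its difference was not called (log2 0.20, interval −0.02 to 0.42), which places it within 1.5-fold of WT.

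Of the 5 members of glycolysis and pyruvate metabolism, 2 fell (40%, against 6.28% of all probe sets tested) and 3 were not called. *GAPC3*, a cytosolic glyceraldehyde-3-phosphate dehydrogenase, read 4416, 4914 and 4894 in MADS29_KD, against 7623, 7114 and 7772 in WT (log2 −0.66 ± 0.06, adjusted p = 0.00402). *ENO1*, an enolase, read 3687, 3800 and 3789 in MADS29_KD, against 5860, 5539 and 6008 in WT (log2 −0.63 ± 0.03, adjusted p = 0.00118). On these probe sets both groups of arrays were tight and stood well apart. Another *GAPC3* probe set above background on all arrays read 99.8, 1506 and 1529 in MADS29_KD, against 2604, 410 and 2635 in WT. Its groups overlapped and it was not called (log2 −1.20 ± 1.45). *GAPC1*, annotated as the same enzyme as *GAPC3*, read 3775, 3810 and 4009 in MADS29_KD, against 4224, 4065 and 4430 in WT, and its interval (−0.24 to −0.02) lay within 1.5-fold. The log2 ratio of *GAPC3* to *GAPC1* differed by −0.53 between the groups, and that of *ENO1* to *TPI*, the triosephosphate isomerase, by −0.48, both without overlap. *TPI* itself (log2 −0.15, interval −0.38 to 0.08) and *PPDKB*, a pyruvate orthophosphate dikinase (log2 −0.17, interval −0.36 to 0.02), overlapped between the groups and stayed within 1.5-fold.

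The 3 photosynthesis members were all lower in every MADS29_KD array than in any WT array, against 73 of the 117 members and 12.1% of all probe sets. *CAB2R*, a chlorophyll a/b-binding protein of the light-harvesting antenna, read 3724, 3141 and 3491 in MADS29_KD, against 7681, 7874 and 8135 in WT, and fell 2.29-fold (log2 −1.20 ± 0.07, adjusted p = 0.0013). A second probe set of *CAB2R* read 1455, 1009 and 1101 in MADS29_KD, against 3913, 4953 and 3594 in WT, and was also called lower (log2 −1.81). *RCABP89*, of the same protein family, read 1898, 2090 and 2117 in MADS29_KD, against 3899, 3377 and 3590 in WT (log2 −0.83 ± 0.07, adjusted p = 0.00375). *PETE*, plastocyanin, the copper protein that carries electrons to photosystem I, read 2189, 2561 and 2700 in MADS29_KD, against 3018, 3164 and 3110 in WT, and missed the threshold (log2 −0.32, adjusted p = 0.0895). The 4 measured markers of green pericarp, of which *CAB2R* is one and supplies most of the sum, summed to 4467 to 4806 in MADS29_KD and 8271 to 8739 in WT. They did not move together, since *LIR1*, a light-regulated gene, fell as *CAB2R* did (log2 −2.24), *RBCS*, the small subunit of Rubisco, was not called (log2 −0.23), and *OsrcaA1*, the activase of Rubisco, was higher (log2 1.80). The part of the amount of green tissue in these differences was not tested.

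Of the 5 folding members, 4 fell and 1 rose, and all 5 intervals lay within 2-fold. Over all probe sets tested, 6.28% were called lower, 5.07% were called higher and 88.9% had an interval within 2-fold. *CRT1*, calreticulin of the endoplasmic reticulum, read 1385, 1496 and 1316 in MADS29_KD, against 2553, 2465 and 2589 in WT (log2 −0.86 ± 0.05, adjusted p = 0.00153). *PDIL1-1*, the protein disulfide isomerase, read 4201, 4591 and 4448 in MADS29_KD, against 5317, 5402 and 5500 in WT (log2 −0.29 ± 0.04, adjusted p = 0.0116). *BIP1*, the HSP70 chaperone of the endoplasmic reticulum, read 3863, 3868 and 3792 in MADS29_KD, against 3510, 3474 and 3254 in WT, and was slightly higher (log2 0.17 ± 0.03, adjusted p = 0.0396). The call of *BIP1* was lost in 12 of 16 other fits, and in 1 of these, with arrays scaled by added control transcripts, its sign turned as well. The log2 ratio of *BIP1* to *CRT1* differed by 1.03 between the groups and that of *BIP1* to *PDIL1-1* by 0.47, with no overlap in either. The cytosolic HSP90 genes *HSP81-3* (log2 −0.37, adjusted p = 0.0119) and *HSP81-2* (log2 −0.31, adjusted p = 0.0384) were both lower. Other probe sets of *HSP81-3* above background on all arrays were not called (log2 −0.34 ± 0.51 and 0.003 ± 0.66). The call of *HSP81-2* was lost in 8 of 16 other fits, that of *HSP81-3* in 3 and that of *PDIL1-1* in 2.

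Both aquaporins of the vacuolar membrane among the members rose. *OsTIP3;1*, of the type found in seed storage vacuoles, read 6374, 6083 and 6483 in MADS29_KD, against 2905, 2639 and 3148 in WT, and was the single member called at least 2-fold higher (2.18-fold, log2 1.13 ± 0.07, adjusted p = 0.00166). Its probe set, like those of *HSP81-3*, *GAPC1*, *OsSWEET11* and *DAHPS2*, carries the array maker's mark for probes shared between transcripts. In all, 27 of the 117 members had a probe set so marked. *OsTIP1;1* read 4600, 5046 and 4851 in MADS29_KD, against 3771, 3754 and 3831 in WT (log2 0.35 ± 0.04, adjusted p = 0.00665). Another *OsTIP1;1* probe set above background on all arrays overlapped between the groups and was not called (log2 0.56 ± 0.28). The call of *OsTIP1;1* was lost in 2 of 16 other fits and that of *OsTIP3;1* in 1. The log2 ratio of *OsTIP3;1* to *OsTIP1;1* was 0.39 ± 0.10 in MADS29_KD and −0.39 ± 0.11 in WT (SD, n = 3 each).

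The remaining risers had separate roles. *CPK23*, a calcium-dependent protein kinase, read 6420, 6086 and 5404 in MADS29_KD, against 2931, 3556 and 3030 in WT (log2 0.91 ± 0.10, adjusted p = 0.00843). *OsSAP8*, a zinc-finger protein of the stress-associated family, read 4011, 3950 and 3891 in MADS29_KD, against 2316, 2659 and 2324 in WT (log2 0.70 ± 0.06, adjusted p = 0.0039). *APX2*, a cytosolic ascorbate peroxidase, read 3316, 3260 and 3400 in MADS29_KD, against 2507, 2588 and 2719 in WT (log2 0.35 ± 0.04, adjusted p = 0.00591). None of these 3 genes had an array that overlapped the other group, and another probe set of *APX2* that was above background on all arrays was called higher too (log2 0.37).

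The remaining fallers were *LTP110-A*, *DAHPS2* and *RAN2*. *LTP110-A*, a lipid transfer protein, read 1517, 1593 and 1613 in MADS29_KD, against 3366, 3707 and 3805 in WT (2.30-fold, log2 −1.20 ± 0.06, adjusted p = 0.000762), so none of its MADS29_KD arrays kept to the limit. *DAHPS2*, which catalyses the first step of the shikimate pathway, read 3067, 3156 and 3166 in MADS29_KD, against 4896, 4128 and 5291 in WT (log2 −0.60 ± 0.10, adjusted p = 0.0247). A second probe set of *DAHPS2* was not called and had the opposite sign (log2 0.86 ± 0.70). *RAN2*, a small GTPase of nuclear transport, read 2148, 2401 and 2286 in MADS29_KD, against 3113, 2809 and 3050 in WT (log2 −0.39 ± 0.06, adjusted p = 0.0201). The calls of *DAHPS2*, *OsSUS2* and *RAN2* were each lost in 4 or more of 16 other fits, with adjusted p up to 0.108, 0.111 and 0.137.

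**Figure D3:**
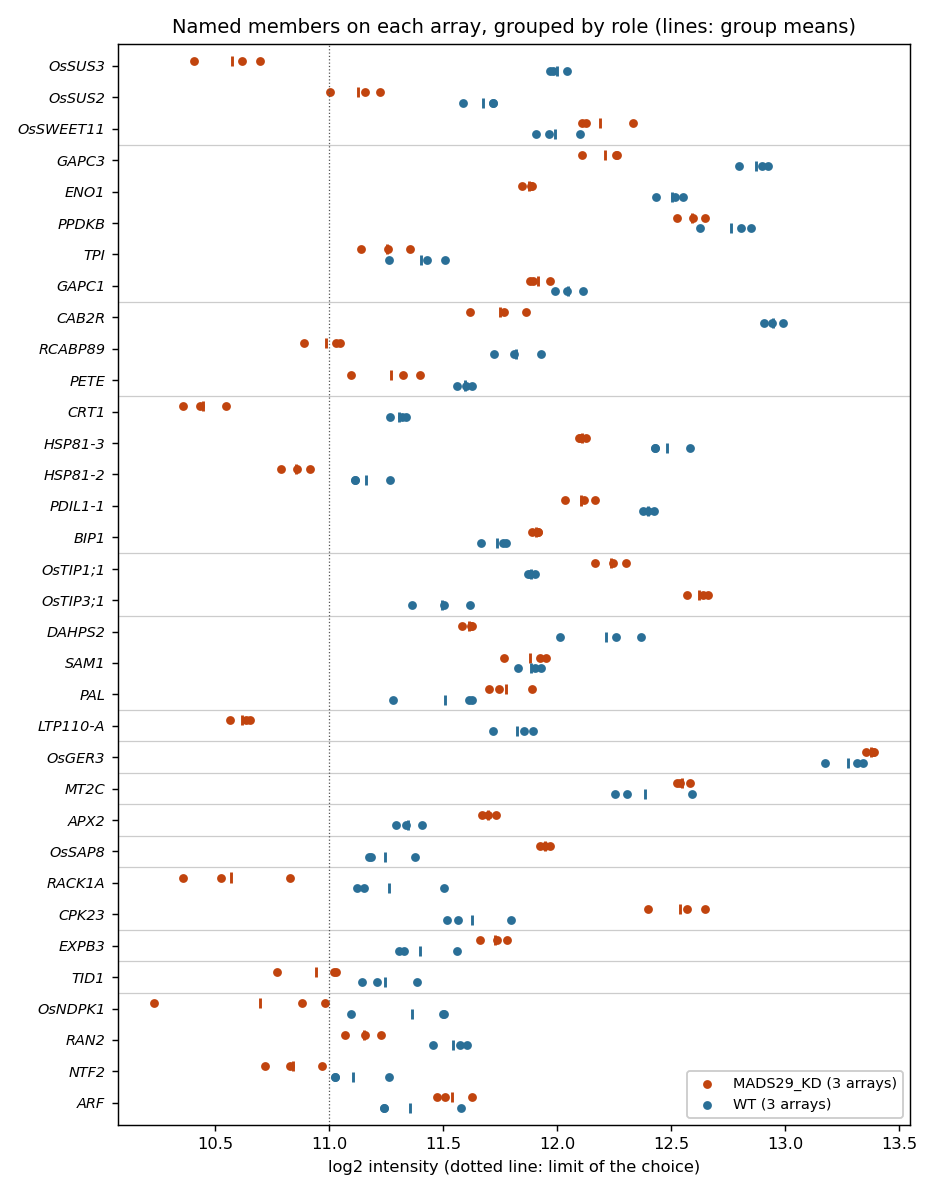
Log2 intensity of the 34 named members on each array (3 MADS29_KD points in orange above 3 WT points in blue, short lines for group means), grouped by role, with sugar metabolism at the top. The dotted line is the limit that all WT points had to reach, and 7 members, *OsSUS3*, *CRT1*, *LTP110-A*, *RACK1A*, *OsNDPK1*, *HSP81-2* and *NTF2*, have all MADS29_KD points to the left of it.

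The 10 most tightly bounded of the named members had every end of their 95% intervals within 1.36-fold of WT. *SAM1*, S-adenosylmethionine synthetase, held closest, at 3490, 3955 and 3886 in MADS29_KD, against 3900, 3640 and 3828 in WT, with an interval of −0.16 to 0.15. *OsGER3*, a germin-like protein, read 10726, 10694 and 10454 in MADS29_KD, against 10175, 9231 and 10372 in WT (interval −0.03 to 0.23). *MT2C*, a type 2 metallothionein, read 6132, 5887 and 5955 in MADS29_KD, against 5064, 6168 and 4882 in WT (interval −0.09 to 0.42), and its other 4 probe sets had differences of 0.15 to 0.32 with none called. The rest of the 10 were *GAPC1*, *BIP1*, *PPDKB*, *TPI*, *PDIL1-1*, *OsSWEET11* and *APX2*, so 3 of the 10 were called as changed while lying within this bound.

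Among the members not called, some were held open by their spread and not by a narrow interval. *OsNDPK1*, a nucleoside diphosphate kinase, read 1203, 2021 and 1888 in MADS29_KD, against 2893, 2187 and 2900 in WT, with an interval of −1.32 to −0.02. *RACK1A*, a scaffold protein of signalling, read 1820, 1473 and 1314 in MADS29_KD, against 2281, 2908 and 2231 in WT, with an interval of −1.13 to −0.25 (adjusted p = 0.0759). In both genes MADS29_KD replicate 1 and WT replicate 2 sat at the same end of their groups, the low end for *OsNDPK1* and the high end for *RACK1A*. These 2 arrays were also those with the 5′ actin control at background (log2 of 2.75 and 2.33, against 5.86 to 6.42 on the other 4). They were both the lowest of their group in 27 of the 117 members and both the highest in 40. Of the 46 members not called, 32 showed this pattern, against 35 of the 71 called. With this array class as a block in the fit, 68 of the 71 calls were kept and 16 members were newly called, among them *OsNDPK1* and *RACK1A*, while the calls over all probe sets numbered 7959, against 6490 without the block. *EXPB3*, a beta-expansin of the cell wall (log2 0.33, adjusted p = 0.0766), *TID1*, an alpha-tubulin (log2 −0.30), *NTF2*, a nuclear transport factor (log2 −0.27), *PAL*, phenylalanine ammonia-lyase (log2 0.27), and *ARF*, whose name the annotation does not spell out (log2 0.18), were not called on their own probe sets. Another probe set of *PAL* was called higher (log2 1.86, adjusted p = 0.0021) and another of *TID1* lower (log2 −0.28, adjusted p = 0.027), both above background on all arrays.

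**Figure D4:**
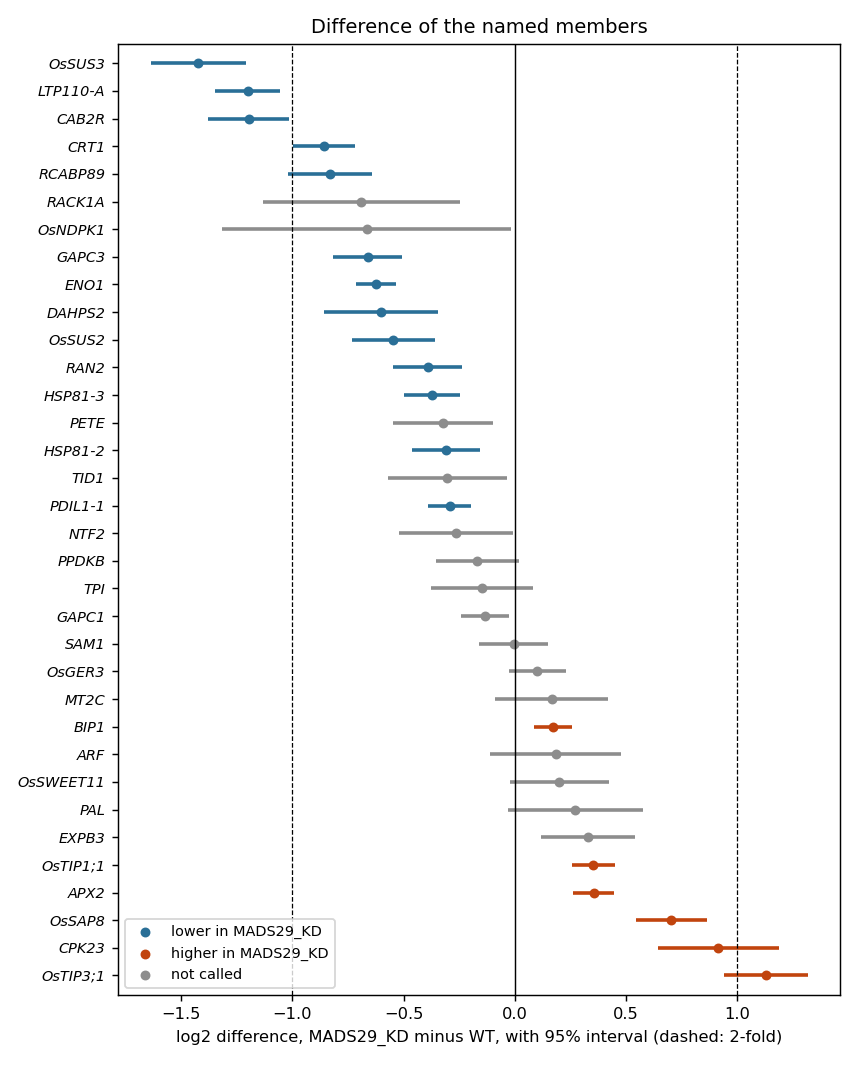
Log2 difference (MADS29_KD minus WT) of the 34 named members with the 95% interval of the limma fit, coloured by call, with dashed lines at 2-fold. Intervals of 26 of the 34 lie within the dashed lines, and those of *OsSUS3*, *LTP110-A* and *CAB2R* lie wholly beyond the left line.

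The 83 members known by a locus number alone held the deepest fall. LOC4332927 read 304, 411 and 353 in MADS29_KD, against 2907, 2896 and 3151 in WT, an 8.44-fold difference (log2 −3.08 ± 0.12, adjusted p = 0.000515). LOC4335607 (log2 −1.24) and LOC4348826 (log2 −1.15) were the others called at least 2-fold lower. The highest rise among them was LOC4329275, with 11685, 11511 and 11527 in MADS29_KD, against 6273, 6746 and 6160 in WT (log2 0.86 ± 0.04). In all, 42 of the 83 (50.6%) were called lower and 10 (12%) higher, and 71 intervals (85.5%) lay within 2-fold. Of the 34 with a name, 13 (38.2%) were lower and 6 (17.6%) higher. Over all probe sets tested the shares were 6.28% lower, 5.07% higher and 88.9% within 2-fold. The WT arrays chose the members with and without a name, so no lean is read from these counts. These counts were not tested against each other. LOC4343945, which is next to *DAHPS2* in the RefSeq gene order, had a log2 difference of −0.62 (adjusted p = 0.00405), against −0.60 for *DAHPS2*. In the other 2 pairs of members within 2 steps of each other, LOC4337595 (log2 0.02) and *MT2C* (log2 0.17) were not called, and LOC4333306 (log2 0.31, not called) and LOC4333308 (log2 −0.61, called lower) had opposite signs.

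Other probe sets of the same genes gave a partial check. The arrays held 82 further probe sets for 39 of the 117 genes, and 57 of these, for 33 genes, were above background on all 6 arrays. Their differences lay a median of 0.22 (log2) from those of the members' own probe sets. Of the 34 such probe sets whose member was called, 23 had the same sign, 14 were called the same way and 1, of LOC9270227, was called the opposite way.

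Around the limit the choice was narrow. The lowest WT arrays of the 3 members just inside it read 2053 (LOC9272225), 2058 (LOC4337331) and 2074 (LOC4350516), and those of the 3 genes just outside read 2046 (LOC4327483), 2044 (LOC4324844) and 2040 (*SAM2*).

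The brightest layer also gained genes in MADS29_KD. On single arrays, 231 to 245 probe sets reached the limit in MADS29_KD and 256 to 260 in WT, and 152 were at the limit on all 6 arrays. By the same rule applied to the MADS29_KD arrays, 118 genes qualified, of which 80 were members (2 through another probe set) and 38 were not. These 38 were chosen for being high in MADS29_KD, so their differences are given as a description. Their WT arrays were all below the limit for 29 of them. *RAB21*, a dehydrin, was at 2076, 2345 and 2226 in MADS29_KD, against 11.8, 12.9 and 11.7 in WT. *EM*, a late embryogenesis abundant protein, was at 2556, 2190 and 2181 in MADS29_KD, against 196.9, 241.9 and 190.9 in WT. *OsSUS4*, another sucrose synthase, was at 2858, 2670 and 2400 in MADS29_KD, against 470.9, 473.8 and 442.4 in WT. The peroxiredoxin gene *R1C-Prx* was at 4115, 4161 and 4321 in MADS29_KD, against 747.2, 514.6 and 794.1 in WT, and *RINO1*, which makes inositol phosphate, was at 2488, 2441 and 2285 in MADS29_KD, against 1191, 1217 and 1240 in WT. The 4 measured markers of aleurone and embryo summed to 4500 to 4732 in MADS29_KD and 263 to 325 in WT. *RAB21* and *EM*, both among the 38 chosen for being high in MADS29_KD, supplied nearly all of the MADS29_KD sum. Of the rest, *OsVP1* was called higher (log2 0.97), and *OSH1*, a marker of the young embryo, was not called (log2 −0.11).

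The members' part in the summed linear intensity of an array was 12.7 to 12.9% in MADS29_KD and 14.7 to 14.9% in WT. The 23 genes set aside for starch, storage and translation took 4.31 to 4.44% in MADS29_KD and 3.50 to 3.78% in WT. All 216 probe sets at the WT limit together took 29.1 to 29.5% in MADS29_KD and 29.6 to 30.7% in WT, whereas the 209 at the MADS29_KD limit took 31.9 to 32.3% in MADS29_KD and between 26 and 27.4% in WT. Each of these sets takes a larger share in the group that chose it, except the 23 genes set aside.

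**Figure D5:**
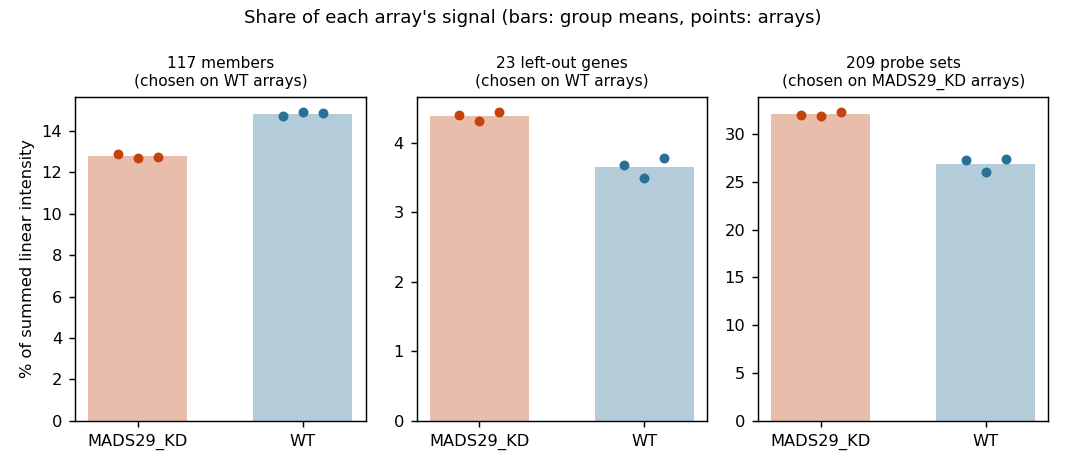
Share of each array's summed linear intensity (%, vertical axes, each starting at 0) taken by the 117 members, by the 23 genes set aside and by the 209 probe sets at the limit on all MADS29_KD arrays, for 3 MADS29_KD arrays (orange) and 3 WT arrays (blue). The members' share is 12.7 to 12.9% in MADS29_KD, below the 14.7 to 14.9% in WT.

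The labelled tissue was checked against its markers. Of 11 listed markers of starchy endosperm, 6 were measured and 5 were above background on all arrays. The 6 summed to 39412 to 40622 in MADS29_KD and 25355 to 26651 in WT, and 4 were called higher. They did not move together. *RAG2* rose most, to 12528, 11898 and 11983 in MADS29_KD, against 3099, 4005 and 3070 in WT. *SSI*, *SBE1* and *GLUA-1* rose less (log2 0.77, 0.31 and 0.65). *WAXY* overlapped between the groups (log2 0.07), and *RSR1* was lower on all MADS29_KD arrays but not called (log2 −0.84). The 5 markers of nucellus and maternal tissue summed to 6227 to 6836 in MADS29_KD and 4842 to 5291 in WT, with 1 called lower and 2 higher. The 1 called lower was *OsMADS29*, the target of the construct, so that call is not a reading of the tissue. *OsSWEET11*, which was not called, supplied most of the sum, and the 2 called higher were *OsVPE1* and *OsSWEET15*. No marker of anther and pollen was above background on all 6 arrays. The part of tissue proportions in the members' differences was not tested. Across the members' log2 values, arrays of the same group correlated at 0.937 to 0.992 and arrays of different groups at 0.668 to 0.722, as a description over 117 genes that share the arrays and were chosen for a high WT signal. Over all probe sets the values were 0.990 to 0.998 within groups and 0.955 to 0.963 between them.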

How the data were processed

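The authors deposited 1 table of linear probe set intensity values from Affymetrix rice genome arrays, hybridized with cRNA made from 500 ng of total RNA per sample. The sources used here do not name the software, background correction, summarization or normalization, so values were taken as deposited and log2 was computed. Control probe sets (123 AFFX, 64 RPTR) were left out. Groups came from the sample labels. Differences (MADS29_KD minus WT) were fitted with limma 3.58.1 in R 4.3.3 (lmFit, eBayes, no block), adjusted by Benjamini-Hochberg over 57194 probe sets and called at an adjusted p under 0.05. The script was tested on simulated data. Background was the 95th percentile of the reporter probe sets of each array. Gene names came from the array annotation and the RefSeq gene table of assembly ASM3414082v1, which held all 117 members. No sequence was analysed here.

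The members, gene lists, gene pairs and tests were chosen with earlier results of these data known. Named genes were *OsMADS29* and, among the 34 named members, up to 10 deepest falls and 10 highest rises with non-overlapping arrays, the 10 with the narrowest bound on change, up to 3 per role by WT signal, and 3 genes on either side of the limit. This took 32 of the 34 (10 falls, 6 rises). *HSP81-2* and *NTF2*, the locus-number members, the genes that joined in MADS29_KD and the pairs were added after their values were seen. The number of arrays, 3 per group, limits the precision. Alternatives changed the normalization, the array scale, the filter, the fit, the arrays, the limit and the probe set.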

Additional observations from a re-analysis of the deposited data

Results flagged for a closer look

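Control transcripts added during the array procedure, which the main comparison of the members does not use, gave a higher signal in MADS29_KD. The poly-A controls differed by a mean log2 of 0.85 (36 probe sets, array means 4.90 to 5.68 in MADS29_KD and 4.10 to 4.85 in WT). The hybridization controls differed by a mean log2 of 0.80 (27 probe sets, array means 8.27 to 9.11 in MADS29_KD and 7.62 to 8.44 in WT). Both were listed because a signal outside the main measurement differed between the groups, and for the hybridization controls the ranges of the groups overlapped.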

How the results depend on the processing

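Of the members' 71 calls, 70 were kept with arrays centred on their medians, 62 after quantile normalization, 68 with dim probe sets left out, 69 with a trended robust fit, 71 with array weights, 68 with the 5′ actin class as a block and 60 without WT replicate 2 and MADS29_KD replicate 1. Fewest were kept with a replicate block, 23, with 48 lost. Leaving out 1 replicate kept 49 to 63, and a scale set by the hybridization controls kept 55. *OsSUS3*, *LTP110-A*, *CAB2R*, *CRT1* and *ENO1* kept their calls in all 16 other fits. Quantile normalization gave a median of −0.38. Centring on probe sets of 256 or higher moved the median of all probe sets to 0.11 and that of the members to −0.23, with 27 members higher and 2 at least 2-fold higher, where 43137 of the 57194 probe sets were called, against 6490 as reported. Array weights also gave 2 at least 2-fold higher. Leaving out 1 replicate gave 37 to 53 members lower, 12 to 18 higher, 5 to 7 at least 2-fold lower, 1 at least 2-fold higher, 91 to 100 within 2-fold and medians of −0.365 to −0.309, with the fewest lower calls without WT replicate 3 (37) and without WT replicate 1 or MADS29_KD replicate 3 (40 each).

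Samples with the same replicate number deviated together for replicate 3 (correlation 0.71) but not for replicates 1 and 2 (−0.69 and −0.72). The numbers therefore do not pair all samples. Across numbers, MADS29_KD replicate 1 went with WT replicate 2 (0.84) and MADS29_KD replicate 2 with WT replicate 1 (0.74). With a replicate block 18 members were lower and 6 higher, and *OsMADS29* kept its log2 difference of −1.96 with an adjusted p of 0.080 (limma).

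A scale set by the hybridization controls, added after the data were seen, moved the median of all probe sets to −0.79. The members' median was then −1.13, with 85 lower, 0 higher (0 also at an unadjusted limma p under 0.05), 72 at least 2-fold lower, 0 at least 2-fold higher, 8 within 2-fold and 46 at the limit on all MADS29_KD arrays. Over all probe sets 45773 were then called, 8148 at least 2-fold lower and 426 at least 2-fold higher. Of the 16 members called higher, 13 changed sign there, among them *BIP1* (−0.63), *OsTIP1;1* (−0.45), *APX2* (−0.45) and *OsSAP8* (−0.10). This scale moved every difference by the same amount, so the place of these named 4 relative to all probe sets could not change. The controls' array means spread over 0.84 log2 in MADS29_KD and 0.82 in WT.

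A limit of 1024 gave 296 genes (140 lower, 41 higher, 27 and 8 at least 2-fold, 211 within 2-fold, median −0.38), and a limit of 4096 gave 28 (16 lower, 1 higher, 1 and 0 at least 2-fold, 26 within 2-fold). The WT arrays chose these genes as well, and over all probe sets 6.28% were called lower and 5.07% higher. Chosen on the mean of 6 arrays, 3 were at least 2-fold lower and 5 higher (median −0.17). Chosen on MADS29_KD arrays, 26 were lower, 48 higher, 1 at least 2-fold lower and 24 higher (median 0.22). With probe sets marked as shared left out before the genes were chosen, 96 genes qualified, some through another probe set, with a median of −0.40 and 0 at least 2-fold higher, because *OsTIP3;1* was left out. The 90 members on other probe sets also had a median of −0.40. Protein and promoter features were not run.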
